A study of Mus musculus with 24 samples.

Results

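The livers of adult and young mice were compared in their response to 90 min of ischemia, as the adult change from sham minus the young change from sham. Of the 24 arrays of the study, 12 entered this comparison, 3 in each of 4 groups, which were chosen by age and treatment in the sample titles, and all 26180 probe sets were kept. The adult mice, 12 to 14 months old, had either 90 min of partial hepatic ischemia or a sham operation, and the young mice, 4 to 5 weeks old, had the same. RNA came from the median and left lobes and was hybridized to Affymetrix 3' arrays. The titles write the treatment as 90/0, and the labels do not say what the 0 stands for. Strain and sex are not stated in the labels.

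Each deposited value is a ratio in which 1 stands for the average of the 3 sham arrays of that age. The 2 sham means cannot be set against each other on this scale, and levels cannot be compared between genes. Whether hepatocyte genes such as albumin dominated the arrays can therefore not be read from the files. An age difference is given on the log2 scale. A positive one means that the adult 90 min arrays stood higher against adult sham than the young 90 min arrays stood against young sham. It does not say in which age the transcript was more abundant.

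The median ratio lay between 0.972 and 1.02 on these 12 arrays. The SD of the log2 ratios over all probe sets was 0.295 to 0.319 on the adult 90 min arrays, against 0.139 to 0.158 on adult sham, and 0.23 to 0.246 on the young 90 min arrays, against 0.129 to 0.192 on young sham. The highest sham value was that of young sham replicate 3. That array was the highest of its group for many of the genes described here, and adult sham replicate 3 was the highest of its group for Kupffer cell and acute phase genes, so values without these arrays are given where they matter. No value of the first part of the title code was shared by the 2 ages, so age and that part of the code cannot be told apart.

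Partial hepatic ischemia closes the blood supply of some lobes, which deprives hepatocytes and the cells of the sinusoid wall of oxygen and substrate. Hepatocytes make plasma proteins, fatty acids and bile acids. Stellate cells are the vitamin A-storing pericytes of the sinusoid, and portal fibroblasts and stellate cells are the main sources of matrix in the liver. Kupffer cells are macrophages that sit in the sinusoid and take up particles, hemoglobin and complement-coated cells. Protein quality control in all of these cells rests on the proteasome, on cytosolic heat shock proteins and on chaperones of the endoplasmic reticulum.

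No probe set passed in the age difference at 90 min: 0 of 26180 had an adjusted p under 0.05 in limma (0%, the lowest adjusted p was 0.421), and 2949 had an unadjusted p under 0.05 (11.3%). Among the 14351 genes, each represented by 1 probe set, 1633 had an unadjusted p under 0.05 (11.4%), of which 612 were positive (4.26%) and 1021 negative (7.11%). In 1268 of the 1633 the responses of the ages had opposite signs, in 313 they had the same sign and the adult one was larger, and in 52 the young one was larger. The 1633 were picked by their p in this same difference, which favors opposite signs, so this split follows largely from the choice. The split over all genes was not computed. The age difference was below 0 in 53.6% of genes. The 3 adult 90 min ratios lay all above the 3 young ones in 16.4% of genes and all below them in 21.2%. In all, 63 genes had a measured age difference past 1 in either direction, and its median standard error was 0.172. Every age difference described here had an adjusted p of at least 0.421 and did not pass, so the age differences are given as values with their standard errors.

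Within an age, the same fit called genes. In adults 121 genes rose (0.843%) and 721 fell (5.02%) at an adjusted p under 0.05, and in young mice 8 rose (0.0557%) and 15 fell (0.105%). The spread of the responses over genes was 0.280 on the log2 scale in adults and 0.197 in young mice (SD over 14351 genes). The calls rested on few arrays. Over all probe sets the adult count was 1323, and with quantile normalization it was 6. Dropping adult sham replicate 3 gave a count of 22 and dropping adult sham replicate 1 gave 403, while dropping the adult 90 min arrays in turn gave 67, 120 and 322. The young count was 29. It became 1, 2 and 72 on dropping the young sham arrays in turn, 18, 1 and 92 on dropping the young 90 min arrays in turn, 47 and 92 on dropping the second and the third adult sham array, and 19 on dropping the third adult 90 min array. A gene that passed in adults and not in young mice is not shown to differ between them.

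Among the 37 lists of genes, the one of the extracellular matrix had the most positive median age difference. Of 23 collagens and matrix genes, 19 had a positive age difference and 10 had one with an unadjusted p under 0.05, where 4.26% of all genes did. The median was 0.34, against -0.02 over all genes. In 13 of 23 the adult 90 min ratios lay all above the young ones, against 16.4% of all genes. In adults 3 of the 23 rose and none fell, against 0.843% and 5.02% of all genes. In young mice none rose and 1 fell, against 0.0557% and 0.105%. In RNA of whole liver, fewer cells of a type and less RNA per cell cannot be told apart. The median over the list was 0.12, 0.22 and 0.04 on the 3 adult 90 min arrays, against 0.05, 0.07 and -0.21 on adult sham, and -0.29, -0.15 and -0.10 on the young 90 min arrays, against 0.01, -0.09 and 0.06 on young sham.

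Islr, an immunoglobulin-superfamily protein with leucine-rich repeats made by stromal cells, had the lowest p of the comparison. Its ratios were 1.28, 1.31 and 1.58 in adults at 90 min, against 1.05, 1.01 and 0.94 in adult sham, and 0.649, 0.743 and 0.869 in young mice at 90 min, against 1.15, 0.968 and 0.881 in young sham. The adult 90 min arrays were above both sham groups and the young 90 min arrays were below them. The age difference was 0.88 ± 0.16 (SE; adjusted p = 0.421 in limma). In adults Islr rose by 0.47 ± 0.11 (adjusted p = 0.0276), and in young mice it was at -0.41 ± 0.11 (adjusted p = 0.146).

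Fbln5, which builds elastic fibers, showed a like layout. Its ratios were 1.5, 1.35 and 1.38 in adults at 90 min, against 0.971, 1.16 and 0.867 in adult sham, and 0.858, 0.907 and 0.908 in young mice at 90 min, against 1.01, 0.934 and 1.06 in young sham. In adults Fbln5 rose by 0.51 ± 0.11 (adjusted p = 0.0174 in limma), with an age difference of 0.67 ± 0.15. Dermatopontin (Dpt), a small matrix protein that binds decorin, had 1.95, 1.69 and 1.44 in adults at 90 min, against 0.96, 1.23 and 0.807 in adult sham. In young mice its 90 min ratios of 0.815, 0.979 and 0.892 overlapped the sham ratios of 0.981, 0.803 and 1.22. Dpt rose by 0.77 ± 0.18 in adults (adjusted p = 0.0256), and its age difference was 0.92 ± 0.26. Mmp2, the gelatinase that cuts denatured collagen, rose by 0.41 ± 0.10 in adults (adjusted p = 0.0296), with an age difference of 0.57 ± 0.14.

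For a second set of stromal genes the adult ratios stayed near 1 and the young ones were low. Ednrb, the endothelin B receptor of endothelial and stellate cells, had 0.837, 0.941 and 0.892 in adults at 90 min, against 0.878, 1.01 and 1.11 in adult sham, and 0.524, 0.521 and 0.622 in young mice at 90 min, against 0.997, 1.02 and 0.985 in young sham. The adult groups overlapped and the young groups did not. Ednrb fell by 0.85 ± 0.10 in young mice (adjusted p = 0.000597 in limma) and was at -0.16 ± 0.10 in adults, an age difference of 0.69 ± 0.14. It was the only one of the 9 genes named here as called in young mice that was called without any 1 of the 12 arrays.

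Lumican (Lum), a small leucine-rich proteoglycan of collagen fibrils, had 0.941, 1.12 and 1.32 in adults at 90 min, against 0.888, 1.05 and 1.06 in adult sham, and 0.432, 0.479 and 0.644 in young mice at 90 min, against 0.929, 0.877 and 1.19 in young sham. Its age difference was 1.12 ± 0.29, and the young value of -0.96 missed the threshold (adjusted p = 0.0515 in limma). Prelp, of the same protein family, fell by 0.82 ± 0.15 in young mice (adjusted p = 0.0406), and Pdgfra, the platelet-derived growth factor receptor of fibroblasts, fell by 0.57 ± 0.10 (adjusted p = 0.0393). The adult values of these 2 genes were -0.02 and 0.09. Osteoglycin (Ogn), a further member of the proteoglycan family, had an age difference of 0.88 ± 0.21 and passed in neither age.

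**Figure D1:**
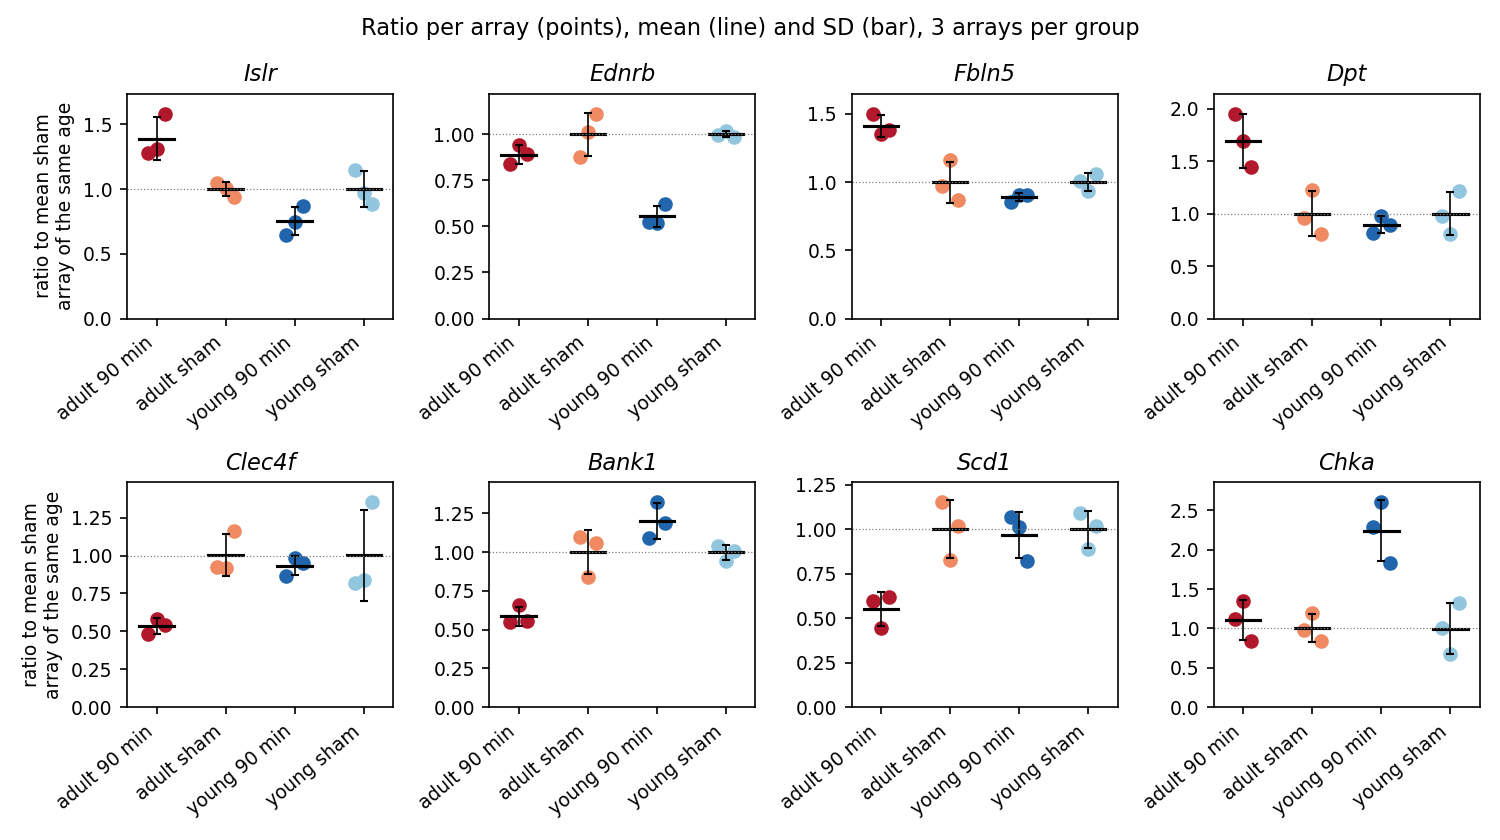
Ratios of 8 genes on each array (points), with the group mean (line) and SD (bar), 3 arrays per group, against the sham mean of the same age (dotted line at 1). Islr, Fbln5 and Dpt are high in adults at 90 min, Ednrb is low in young mice at 90 min, Clec4f, Bank1 and Scd1 are low in adults at 90 min, and Chka is high in young mice at 90 min.

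The remaining genes among the 12 with the lowest p of positive sign were Crispld2, Gpx3, Strc, Fmo2, Actr3b, Dennd2a and Gdf1. Crispld2, a secreted glycoprotein, rose by 0.32 ± 0.07 in adults (adjusted p = 0.0191 in limma), with an age difference of 0.47. Fmo2, a flavin-containing monooxygenase, rose by 0.48 ± 0.11 in adults, Strc (stereocilin) by 0.41 ± 0.10, Actr3b, an actin-related protein, by 0.41 ± 0.10 and Gdf1, a ligand of the transforming growth factor beta family, by 0.34 ± 0.10. Gpx3, the secreted glutathione peroxidase, had an age difference of 0.77 ± 0.17 and passed in neither age, as did Dennd2a, a Rab exchange factor, with 0.49 ± 0.12. In all 12 the adult 90 min ratios lay above all the young ones, against 16.4% of all genes. The 12 were picked by their p in the same comparison, so this layout follows largely from the choice.

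Of 17 stellate cell markers, 15 had a positive age difference, 5 with an unadjusted p under 0.05, where 4.26% of all genes did, and the median was 0.30. In young mice 4 of them fell, against 0.105% of all genes, and in adults 1 rose and 2 fell, against 0.843% and 5.02%. The 3 adult calls became 0 on dropping adult sham replicate 1 or 3 or the first adult 90 min array, and 1 on dropping either of the other adult 90 min arrays. Reelin (Reln) fell by 0.82 ± 0.16 in young mice (adjusted p = 0.0434 in limma) and was at -0.10 in adults, an age difference of 0.72. The collectin Colec11 fell by 0.67 ± 0.18 in adults and fell by 1.04 ± 0.18 in young mice, and its age difference was 0.37 ± 0.26. Desmin (Des), the intermediate filament of stellate and muscle cells, had an age difference of 0.48 ± 0.12 and passed in neither age. The 4 young calls on this list became 0 without young sham replicate 1 or 2 or young 90 min replicate 1 or 2, while 1 was left without adult sham replicate 1, as without the third adult 90 min array, and 2 were left without young sham replicate 3. The list of matrix genes and that of stellate cell markers share genes, such as Lum and Dpt.

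The median of the matrix list was between 0.26 and 0.41 without any 1 array. It was 0.29 between arrays that share the first part of the title code, a value without adult sham replicate 1, young sham replicate 3 and young 90 min replicate 1. With quantile normalization the median was 0.37, and no gene of the list was called in either age. The adult calls on it rested on single arrays: leaving out adult sham replicate 3, or either of adult 90 min replicates 1 and 2, turned the 3 genes into 0, and leaving out adult sham replicate 1 left 1.

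The markers of Kupffer cells lay at the other end. All 16 had a negative age difference, between -1.53 and -0.30 with a median of -0.70, and 5 had an unadjusted p under 0.05, where 7.11% of all genes did so with negative sign. In 13 of 16 the adult 90 min ratios lay all below the young ones, against 21.2% of all genes. In adults 14 of the 16 fell, against 5.02% of all genes, and in young mice none passed. Their median response was -0.95 in adults and -0.38 in young mice.

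Clec4f, a lectin that in the mouse marks Kupffer cells, had 0.482, 0.583 and 0.541 in adults at 90 min, against 0.926, 0.917 and 1.16 in adult sham, and 0.863, 0.985 and 0.948 in young mice at 90 min, against 0.816, 0.838 and 1.35 in young sham. The adult groups did not overlap, and the young ones did. Clec4f fell by 0.90 ± 0.18 in adults (adjusted p = 0.0154 in limma) and was at -0.06 in young mice, an age difference of -0.83 ± 0.26. C1qb, a chain of the first complement component, had 0.287, 0.516 and 0.424 in adults at 90 min, against 0.836, 0.808 and 1.36 in adult sham, and 0.852, 0.972 and 0.825 in young mice at 90 min, against 0.822, 0.85 and 1.33 in young sham. It fell by 1.29 ± 0.29 in adults (adjusted p = 0.0216), with an age difference of -1.14 ± 0.41. Csf1r, the receptor that keeps macrophages alive, fell by 0.76 ± 0.16 in adults (adjusted p = 0.0183), with an age difference of -0.66 ± 0.23.

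The scavenger receptor Cd163 was low in both ages. Its ratios were 0.201, 0.329 and 0.316 in adults at 90 min, against 1.07, 0.78 and 1.15 in adult sham, and 0.51, 0.597 and 0.519 in young mice at 90 min, against 1.07, 1.02 and 0.909 in young sham. The 90 min arrays lay below the sham arrays in either age, and the adult ones lay below the young ones. Only the adult value passed (-1.84 ± 0.25, adjusted p = 0.00109 in limma), the young one being -0.88 ± 0.25 (adjusted p = 0.149). The age difference was -0.96 ± 0.35. Vsig4, a complement receptor, fell by 1.54 ± 0.32 in adults, and its 90 min ratios overlapped between the ages.

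Adult sham replicate 3 carried part of these values. The list median was 0.33 on it and -0.20 and -0.31 on the other adult sham arrays, and young sham replicate 3, at 0.24, stood above -0.11 and -0.18 in the same way. The scavenger receptor Marco had 0.175, 0.227 and 0.31 in adults at 90 min, against 0.247, 0.231 and 2.52 in adult sham, and the groups overlapped. Without adult sham replicate 3 the median age difference of the 16 markers was -0.42 and the number that fell in adults was 1 in place of 14. Leaving out adult 90 min replicate 1 gave 2, and leaving out any other adult array gave 7 to 15. Without young sham replicate 3 the median was -0.82. Between arrays that share the first part of the title code it was -1.05. Adult sham replicate 1, young sham replicate 3 and young 90 min replicate 1 have no such partner and drop out of that value. Adult sham replicate 3 stays in it as 1 of 2 adult sham arrays. With quantile normalization the median was -0.36, with 1 call in adults.

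**Figure D2:**
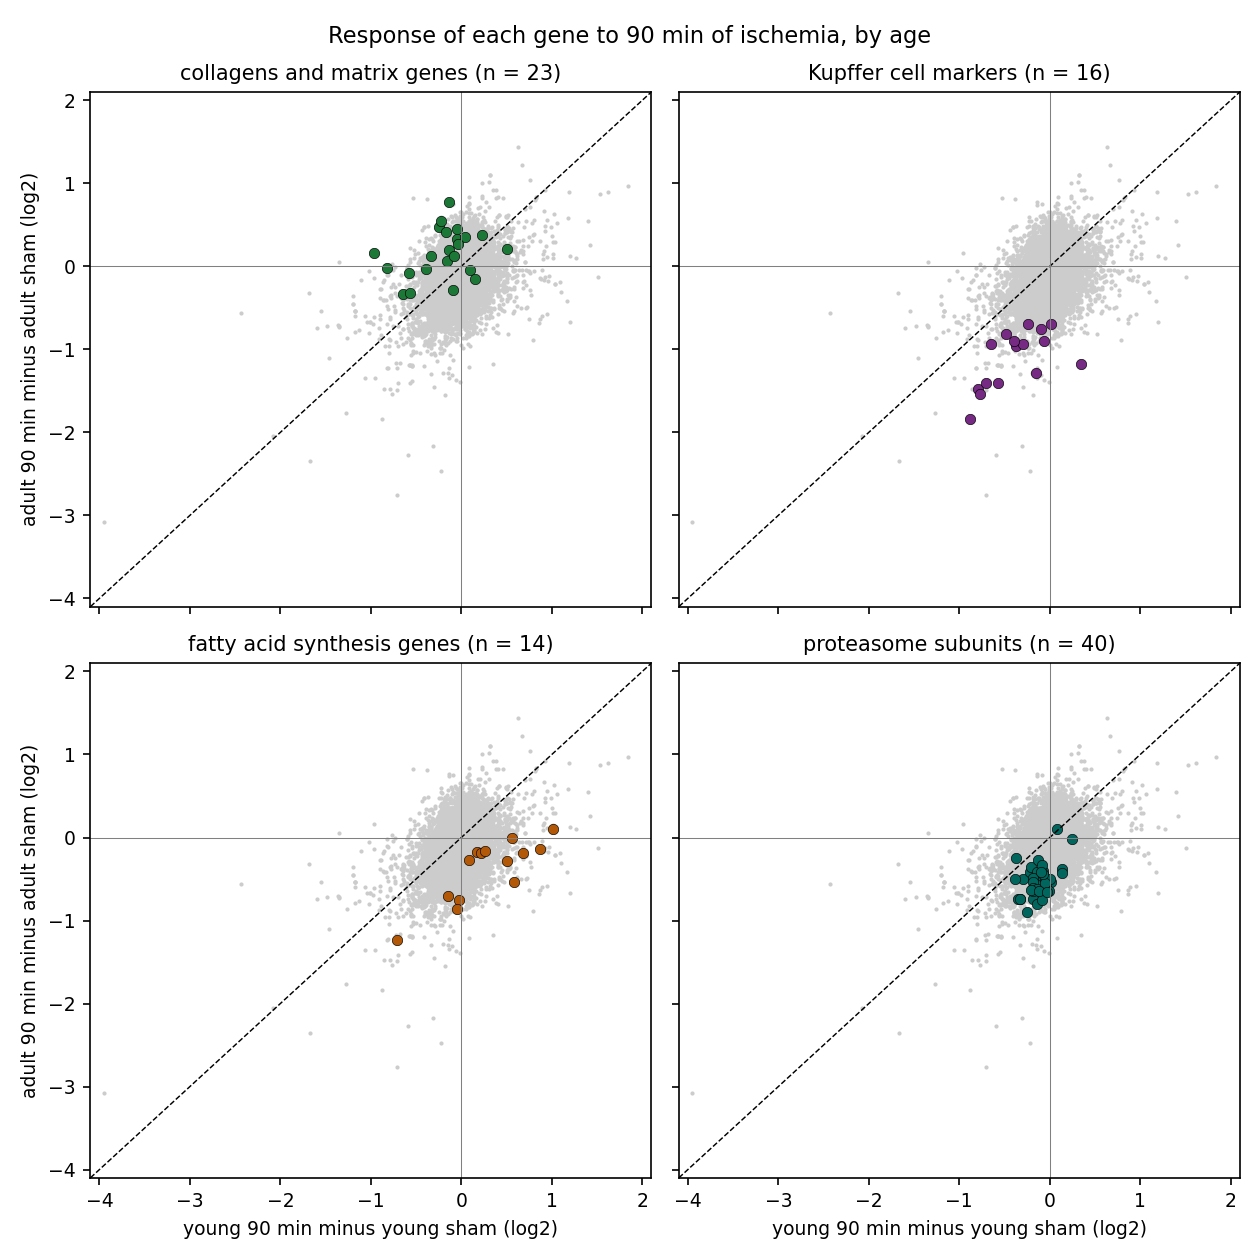
Response of each gene to 90 min of ischemia in adult mice (vertical axis, log2 of 90 min minus sham) against that in young mice (horizontal axis, same scale), with 14351 genes and their further probe sets in grey and 1 list in color per panel. Points above the dashed diagonal have a positive age difference, and all 16 Kupffer cell markers and all 14 fatty acid synthesis genes lie below it.

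Genes of antigen presentation and of the interferon response had negative age differences as well. Of 9 genes of MHC class II presentation, 8 were negative, and the median of the list was -0.36. In 1 the unadjusted p was under 0.05, against 7.11% of all genes with negative sign. The median was -0.19 without young 90 min replicate 2, -0.60 without young sham replicate 3, -0.54 without young 90 min replicate 1 and -0.63 without adult sham replicate 3. The gene with an unadjusted p under 0.05 was Ctss, cathepsin S, which trims the invariant chain and is made by macrophages: it had 0.321, 0.524 and 0.398 in adults at 90 min, against 1.02, 0.786 and 1.19 in adult sham, and 0.811, 1.04 and 0.736 in young mice at 90 min, against 0.829, 0.845 and 1.33 in young sham. Ctss fell by 1.28 ± 0.27 in adults (adjusted p = 0.0174 in limma), with an age difference of -1.08 ± 0.38. H2-Aa, the alpha chain of the class II molecule I-A, had 1 young 90 min array at 2.7 beside 0.849 and 0.815, and its age difference of -0.86 ± 0.57 was within 2 standard errors of 0.

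Of 16 interferon-stimulated genes, 15 had a negative age difference, and the median of the list was -0.50. In 4 the unadjusted p was under 0.05, against 7.11% of all genes with negative sign. The median response was -0.33 in adults and 0.18 in young mice, and no gene of the list passed in either age. In 10 of 16 the adult 90 min ratios lay all below the young ones, against 21.2% of all genes. Stat2, a transcription factor of the type I interferon response, had an age difference of -0.47 ± 0.19, and the interferon-induced GTPases Gbp3 and Igtp had -1.10 ± 0.35 and -1.03 ± 0.37. Igtp stood at 2.12, 2.16 and 1.16 in young mice at 90 min, against 0.782, 0.732 and 1.49 in young sham. Its groups overlapped in both ages, in young mice through the third array of each group. The list median was between -0.66 and -0.37 without any 1 array, lowest without young sham replicate 3.

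Promoters are shown for the 3 interferon-stimulated genes described above, which were picked after their values were seen and which hold the letters to which interferon-activated factors are known to bind. The 250 bases before the start of 14 of the 16 genes were read from RefSeq (GRCm38.p6) and searched on both strands for the interferon-stimulated response element, written here as GAAA, any 2 bases and GAAA. It was found in 6 of 14, which were Isg15, Stat2, Rsad2, Gbp2, Gbp3 and Igtp, and in 2.98% of the 32851 promoter windows of the table. A gene counted when any of its annotated starts had a match, whereas the percentage is of single windows, so these are unlike measures. Capitals mark the match, written on the strand of the gene, so that a match on the other strand reads TTTC, 2 bases and TTTC. The window of Gbp3 is chr3:142559794-142560043 (+ strand), at one of its annotated starts, with 2 overlapping matches on the other strand. That of Igtp is chr11:58199306-58199555 (+ strand), and that of Stat2 is chr10:128270248-128270497 (+ strand).
Gbp3: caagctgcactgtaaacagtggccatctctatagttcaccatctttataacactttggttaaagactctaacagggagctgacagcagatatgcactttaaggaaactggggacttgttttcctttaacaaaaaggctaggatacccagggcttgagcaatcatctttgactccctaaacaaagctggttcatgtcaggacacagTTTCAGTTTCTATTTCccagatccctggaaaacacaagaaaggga
Igtp: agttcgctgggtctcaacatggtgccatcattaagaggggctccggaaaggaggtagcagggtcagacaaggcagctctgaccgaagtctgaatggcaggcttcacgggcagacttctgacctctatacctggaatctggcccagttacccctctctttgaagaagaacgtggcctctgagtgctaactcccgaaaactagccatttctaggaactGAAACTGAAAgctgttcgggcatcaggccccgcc
Stat2: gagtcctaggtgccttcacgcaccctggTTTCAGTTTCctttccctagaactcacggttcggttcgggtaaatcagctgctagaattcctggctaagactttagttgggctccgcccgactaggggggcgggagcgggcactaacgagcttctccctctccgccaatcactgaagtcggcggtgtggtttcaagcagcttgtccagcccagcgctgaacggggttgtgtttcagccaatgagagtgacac
The matches begin 45 and 39 bases before the start in Gbp3, 34 bases before it in Igtp and 222 bases before it in Stat2. A match is a description of these letters, and binding was not measured.

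Fatty acid synthesis was the metabolic list with the most negative median. All 14 measured genes had a negative age difference, with a median of -0.64, and 7 had an unadjusted p under 0.05, where 7.11% of all genes did. The median response was -0.23 in adults and 0.24 in young mice, and 2 of the 14 genes fell in adults, against 5.02% of all genes. That count became 0 on dropping adult sham replicate 3 and 1 on dropping either of the first and second adult 90 min arrays. Scd1, the desaturase that makes oleate, had 0.596, 0.443 and 0.616 in adults at 90 min, against 1.15, 0.827 and 1.02 in adult sham, and 1.07, 1.01 and 0.822 in young mice at 90 min, against 1.09, 0.887 and 1.02 in young sham. The adult 90 min arrays were below every other array and the young groups overlapped. Scd1 fell by 0.86 ± 0.15 in adults (adjusted p = 0.0102 in limma) and was at -0.05 in young mice, an age difference of -0.81 ± 0.21. Fads2, the delta-6 desaturase, fell by 0.71 ± 0.14 in adults, with an age difference of -0.55 ± 0.20.

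For fatty acid synthase (Fasn) the young side moved more. Its ratios were 1.06, 1.03 and 0.644 in adults at 90 min, against 0.743, 1.19 and 1.07 in adult sham, and 2.3, 2.16 and 1.2 in young mice at 90 min, against 1.01, 0.827 and 1.16 in young sham. The young 90 min arrays were all above young sham, 1 of them narrowly, and neither age passed (0.87 ± 0.25 in young mice, adjusted p = 0.169 in limma). The age difference was -1.01 ± 0.36. Acly, which makes the acetyl-CoA used by Fasn, had an age difference of -1.12 ± 0.44. Of 20 sterol synthesis genes, 19 were negative, the median of the list was -0.42, and none was called in either age. In 2 the unadjusted p was under 0.05, against 7.11% of all genes with negative sign. Sc5d, a sterol desaturase, was at -0.59 ± 0.25. The sterol median was between -0.70 and -0.26 without any 1 array, lowest without young sham replicate 3, which stood at 0.51 on this list, and nearest to 0 without young sham replicate 2. The fatty acid median was between -0.79 and -0.54 without any 1 array.

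By number, proteasome genes had the most genes called in adults of any list, though the 14 of 16 Kupffer cell markers were a larger share. Of 40 measured subunits and assembly factors, 38 had a negative age difference, and the median of the list was -0.42. In 13 the unadjusted p was under 0.05, against 7.11% of all genes with negative sign. In 27 of 40 the adult 90 min ratios lay all below the young ones, against 21.2% of all genes. In adults 18 fell, against 5.02% of all genes, and in young mice none passed. The list medians were -0.54, -0.50 and -0.62 on the adult 90 min arrays, against -0.06, -0.02 and 0.09 on adult sham, and -0.08, 0.04 and -0.36 on the young 90 min arrays, against -0.25, -0.09 and 0.31 on young sham. The adult 90 min arrays were alike, whereas the young arrays spread over a wider range than the young difference.

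Psme4, the activator PA200 that caps the proteasome, had 0.59, 0.579 and 0.625 in adults at 90 min, against 1.01, 0.961 and 1.03 in adult sham, and 0.825, 0.757 and 0.801 in young mice at 90 min, against 0.932, 0.989 and 1.08 in young sham. The 90 min arrays lay below sham in both ages, further in adults. Psme4 fell by 0.74 ± 0.08 in adults (adjusted p = 0.00024 in limma) and was at -0.33 ± 0.08 in young mice (adjusted p = 0.0959), an age difference of -0.41 ± 0.12. Of the 43 genes named here as called in adults, Psme4 and Cd163 were the 2 that were called without any 1 of the 12 arrays. Psmd1, a scaffold of the 19S base, fell by 0.43 ± 0.12 in adults, with an age difference of -0.56 ± 0.17. Psma1, an alpha ring subunit, fell by 0.76 ± 0.19, the assembly chaperone Psmg2 by 0.66 ± 0.18 and Psmd5, a chaperone of base assembly, by 0.50 ± 0.14, with age differences of -0.62, -0.63 and -0.50. Of the 18 adult calls 1 was left without adult sham replicate 3 and without either of adult 90 min replicates 1 and 2. Leaving out adult 90 min replicate 3 gave 2, and leaving out adult sham replicates 1 and 2 in turn gave 3 and 8. The median was -0.37 without adult sham replicate 3 and -0.61 without young sham replicate 3, and 4 and 26 genes then had an unadjusted p under 0.05. It was -0.62 between arrays that share the first part of the title code, a value without adult sham replicate 1, young sham replicate 3 and young 90 min replicate 1. With quantile normalization the median was -0.28, with 1 adult call.

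Chaperones of the cytosol and of the endoplasmic reticulum lay on the same side. Of 20 heat shock proteins and co-chaperones, 15 were negative, with a median of -0.35 that was -0.53 without young sham replicate 3 and -0.21 without young 90 min replicate 1. Hsp90aa1, the inducible cytosolic HSP90, had 0.391, 0.433 and 0.352 in adults at 90 min, against 0.991, 0.796 and 1.21 in adult sham, and 0.937, 0.782 and 0.643 in young mice at 90 min, against 0.525, 0.669 and 1.81 in young sham. The adult 90 min arrays were below all others, and young sham replicate 3 was far above the rest. Hsp90aa1 fell by 1.34 ± 0.32 in adults (adjusted p = 0.0274 in limma), with an age difference of -1.19 ± 0.45 that ran from -1.73 to -0.84 without any 1 array. Hspa4 and the HSP90 co-chaperone Fkbp4 had age differences of -0.55 ± 0.18 and -0.65 ± 0.26. Serpinh1, which folds procollagen, had one of opposite sign, 0.47 ± 0.17, as did most matrix genes.

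Of 21 chaperones of the endoplasmic reticulum and Xbp1 targets, 19 were negative, and the median of the list was -0.44. In 2 the unadjusted p was under 0.05, against 7.11% of all genes with negative sign. In adults 3 of the 21 fell, against 5.02% of all genes. Hsp90b1 (GRP94) had 0.503, 0.449 and 0.484 in adults at 90 min, against 0.969, 0.869 and 1.16 in adult sham, and 0.934, 0.726 and 0.703 in young mice at 90 min, against 0.736, 0.859 and 1.41 in young sham. It fell by 1.05 ± 0.24 in adults (adjusted p = 0.0211 in limma), with an age difference of -0.75 ± 0.34. Xbp1, a transcription factor of the unfolded protein response, fell by 0.90 ± 0.23 and the lectin chaperone calnexin (Canx) by 0.70 ± 0.20 in adults. The chaperone BiP (Hspa5) passed in neither age, with 0.679, 0.65 and 0.446 in adults at 90 min, against 1.07, 0.818 and 1.11 in adult sham, and 1.29, 0.867 and 0.704 in young mice at 90 min, against 0.616, 0.901 and 1.48 in young sham. Its age difference was -0.75 ± 0.43. The 3 adult calls became 0 without any of 5 arrays, which were adult sham replicates 1 and 3 and the 3 adult 90 min arrays. The median of the list was -0.67 without young sham replicate 3, with 10 genes at an unadjusted p under 0.05, and -0.22 and -0.26 without young sham replicate 1 and young 90 min replicate 1, with 0.

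The promoters of Hspa5 and Hsp90b1 are shown because both hold the letters of the endoplasmic reticulum stress element, the sequence through which the unfolded protein response is known to raise chaperone genes. The element, written as CCAAT, any 9 bases and CCACG, was searched on both strands. It was found in 8 of 19 genes of the list with a promoter in the table, which were Hspa5, Hsp90b1, Pdia6, Calr, Canx, Creld2, Syvn1 and Derl3. It was also found in 0.113% of the 32851 windows, a share of single windows, whereas a gene counted when any of its annotated starts had a match. Capitals mark the match. The window of Hspa5 is chr2:34771840-34772089 (+ strand), with 1 match at 65 bases before the start. That of Hsp90b1 is chr10:86705445-86705694 (- strand), with 2 matches at 212 and 107 bases, of which the second is on the other strand.
Hspa5: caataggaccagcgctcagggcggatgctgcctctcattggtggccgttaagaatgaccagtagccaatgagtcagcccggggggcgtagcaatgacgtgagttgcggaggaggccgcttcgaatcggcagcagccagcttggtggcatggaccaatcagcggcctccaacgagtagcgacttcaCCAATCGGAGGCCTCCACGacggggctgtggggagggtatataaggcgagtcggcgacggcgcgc
Hsp90b1: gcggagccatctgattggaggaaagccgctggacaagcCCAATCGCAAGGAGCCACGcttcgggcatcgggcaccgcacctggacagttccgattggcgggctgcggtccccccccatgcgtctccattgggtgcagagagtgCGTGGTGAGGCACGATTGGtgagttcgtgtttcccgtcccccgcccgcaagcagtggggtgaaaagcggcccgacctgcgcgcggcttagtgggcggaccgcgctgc
The match describes these letters only, and whether a factor was bound was not measured.

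Most genes of several metabolic lists had a negative age difference, but few of their members had an unadjusted p under 0.05, against 7.11% of all genes with negative sign. Of 47 subunits of oxidative phosphorylation, 46 were negative and 1 had such a p. Their median of -0.25 was -0.39 without young 90 min replicate 3, and it was -0.13, -0.14 and -0.15 without adult 90 min replicate 3, young 90 min replicate 2 and young sham replicate 1. Sdhd, which anchors complex II in the inner membrane, fell by 0.78 ± 0.17 in adults (adjusted p = 0.0204 in limma), with an age difference of -0.60 ± 0.24. It was 1 of 4 among the 47 subunits that fell in adults, against 5.02% of all genes. On this list 0 were called without adult sham replicate 1 or 3 or any 1 of the adult 90 min arrays.

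Among 27 Nrf2 targets and antioxidant enzymes 26 were negative, with a median of -0.26 and 1 unadjusted p under 0.05, and 5 fell in adults, against 5.02% of all genes. The 5 calls became 0 with quantile normalization and on dropping adult sham replicate 3 or either of the first and second adult 90 min arrays, 1 on dropping adult sham replicate 1 or the third adult 90 min array, and 3 on dropping young sham replicate 2 or the first young 90 min array. Txnrd1, thioredoxin reductase, fell by 0.62 ± 0.13 in adults, with an age difference of -0.47 ± 0.19. All 17 hepatocyte markers were negative, with a median of -0.17, no unadjusted p under 0.05 and 1 call in adults. Adult 90 min replicate 3 and young 90 min replicate 3 were the lowest of their groups on them, with list medians of -0.43 and -0.26. Without that adult array 13 of the 17 were negative, with a median of -0.11, and without that young array all 17 were, with a median of -0.24. All 13 ribosomal protein genes measured were negative, with a median of -0.24 that lay between -0.40 and -0.10 without any 1 array. All 10 genes of the urea cycle were negative too, with a median of -0.23 that lay between -0.34 and -0.15.

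Among 20 genes of bile acid synthesis and transport the median was -0.14, between -0.23 and -0.05 without any 1 array, and 4 fell in adults, against 5.02% of all genes. The 4 calls became 0 with quantile normalization and on dropping adult sham replicate 3 or any 1 of the adult 90 min arrays, 1 on dropping adult sham replicate 1 and 2 on dropping the first young 90 min array. Cyp39a1, an oxysterol hydroxylase, fell by 1.07 ± 0.27 in adults (adjusted p = 0.0318 in limma), with an age difference of -0.94 ± 0.38. Slc10a2, the apical bile acid transporter, had ratios of 0.267, 0.272 and 0.242 in adults at 90 min, against 0.397, 0.341 and 2.26 in adult sham mice, and its age difference of -1.32 moved between -1.81 and -0.44 without any 1 array. Of 33 cytochrome P450 genes 17 were negative and 16 positive, with a median of -0.02. Cyp2b10, the best known target of the receptor CAR, fell by 3.08 ± 0.73 in adults (adjusted p = 0.0251) and fell by 3.95 ± 0.73 in young mice (adjusted p = 0.0393), and its age difference of 0.86 ± 1.03 had a wide error.

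Choline kinase alpha (Chka), which starts phosphatidylcholine synthesis, was high in young mice. Its ratios were 1.12, 1.35 and 0.838 in adults at 90 min, against 0.976, 1.19 and 0.837 in adult sham, and 2.29, 2.6 and 1.83 in young mice at 90 min, against 1, 0.674 and 1.32 in young sham. The young 90 min arrays were above every other array. Chka rose by 1.20 ± 0.20 in young mice (adjusted p = 0.019 in limma) and was at 0.13 ± 0.20 in adults, an age difference of -1.08 ± 0.28. Gpcpd1, which breaks down glycerophosphocholine, fell by 1.48 ± 0.27 in young mice and was at -0.72 ± 0.27 in adults (adjusted p = 0.103), an age difference of 0.75 ± 0.39.

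Among the 12 genes with the lowest p of negative sign were Bank1, Topbp1, Crlf3, Ptpn6, Frk, Rpap3, Cxadr, Gca, Sfpq, Klhl28 and Prxl2a. Bank1, a scaffold of B cell receptor signaling, had 0.55, 0.656 and 0.553 in adults at 90 min, against 1.1, 0.837 and 1.06 in adult sham, and 1.09, 1.32 and 1.19 in young mice at 90 min, against 1.04, 0.944 and 1.01 in young sham. It fell by 0.76 ± 0.15 in adults (adjusted p = 0.0126 in limma), with an age difference of -1.02 ± 0.21. The 8 markers of B cells had a median age difference of 0.03 on the same arrays, with 4 positive and 4 negative. Ptpn6, the phosphatase SHP-1 of blood-derived cells, fell by 0.43 ± 0.11 in adults, with an age difference of -0.65.

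Topbp1, which activates the DNA damage kinase ATR, had 0.697, 0.684 and 0.687 in adults at 90 min, against 1.14, 0.944 and 0.919 in adult sham, and 1.51, 1.43 and 1.18 in young mice at 90 min, against 1.04, 1.01 and 0.957 in young sham. The groups did not overlap in either age, and the 2 ages moved apart. It fell by 0.53 ± 0.15 in adults (adjusted p = 0.0425 in limma) and was at 0.45 ± 0.15 in young mice (adjusted p = 0.246), an age difference of -0.98 ± 0.21. Rpap3, an HSP90 co-chaperone for assembly of RNA polymerase, fell by 0.82 ± 0.19 in adults, and Cxadr, a junction protein known as the coxsackievirus and adenovirus receptor, fell by 0.53 ± 0.13. Prxl2a, a peroxiredoxin-like protein, fell by 0.74 ± 0.16, the kinase Frk by 0.29 ± 0.07 and Crlf3, a cytokine receptor-like factor, by 0.31 ± 0.09. Gca (grancalcin), the splicing factor Sfpq and Klhl28 had age differences of -1.13, -0.96 and -0.67 and passed in neither age. A second probe set of Cxadr had an age difference of -0.63, against -0.76 for the one used.

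Among 34 cell cycle genes 26 were negative, 4 with an unadjusted p under 0.05, against 7.11% of all genes with negative sign. The list median was -0.19 (-0.29 to -0.13 without any 1 array), and no gene of the list was called in either age. Mcm4 and Mcm6, subunits of the replicative helicase, had age differences of -1.22 ± 0.37 and -1.53 ± 0.62, Mcm3 one of -0.54 ± 0.21 and the mitotic kinase Cdk1 one of -0.72 ± 0.28. Mcm6 had 0.645, 0.841 and 0.548 in adults at 90 min, against 0.993, 1.1 and 0.904 in adult sham, and 2.33, 2.2 and 0.841 in young mice at 90 min, against 0.659, 0.491 and 1.85 in young sham. One array of each young group was on the side of the other group.

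Circadian clock genes had a median of 0.04 but the widest range of the 37 lists, from -1.41 to 1.87. Nfil3, a repressor of the clock output, had an age difference of -1.41 ± 0.62 and the core activator Arntl (BMAL1) one of -1.08 ± 0.53, while its partner Clock was at -0.59 ± 0.24 and Rora, which activates Arntl, at -0.55 ± 0.26. The clock output gene Dbp and the repressor Nr1d1 were picked after their values were seen. Dbp, with the largest positive age difference of all genes (1.87 ± 1.35), had 0.201, 0.189 and 2.41 in adults at 90 min, against 1.61, 0.146 and 1.24 in adult sham, and 0.134, 0.111 and 0.102 in young mice at 90 min, against 0.939, 1.93 and 0.13 in young sham. In 3 of the 4 groups 1 array stood far from its partners: adult 90 min replicate 3, adult sham replicate 2 and young sham replicate 3. Arntl stood the other way on these arrays, at 0.51, 1.5 and 1.83, beside 1.07 and 1.1, 0.746 and 0.753, and 0.597 and 0.573 on their partners. Nr1d1 was at 1.98, 0.594 and 0.389 on them, and its age difference was 1.39 ± 0.73. The time of day of sampling is not stated in the labels, and its part in these values was not tested.

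**Figure D3:**
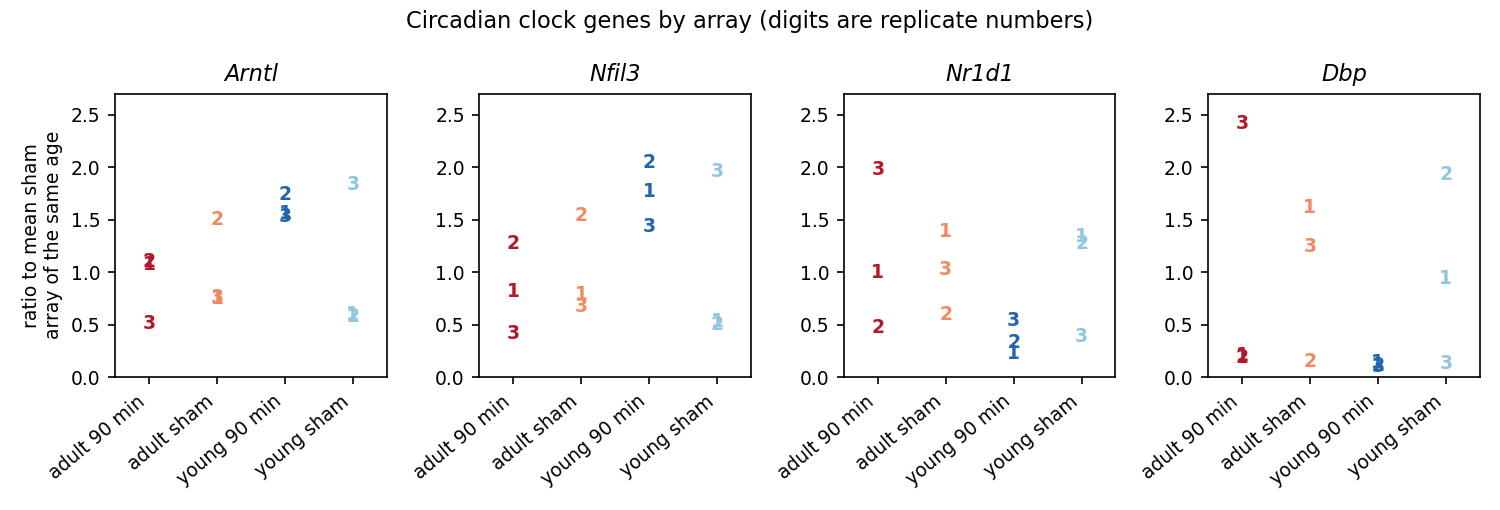
Ratios of 4 clock genes on each array (vertical axis, to the sham mean of the same age), with each array drawn as its replicate number. Adult 90 min replicate 3, adult sham replicate 2 and young sham replicate 3 stand apart from the other arrays of their groups, Arntl in the opposite direction to Dbp.

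Acute phase proteins, which hepatocytes release in inflammation, were negative in 14 of 15 genes with a median of -0.47. In 1 the unadjusted p was under 0.05, against 7.11% of all genes with negative sign. In adults 2 of the 15 fell, against 5.02% of all genes. That count became 0 on dropping adult sham replicate 3 or either of the first and second adult 90 min arrays, and 9 in the 12 arrays alone. The serum amyloid Saa2 had 0.0804, 0.0897 and 0.0701 in adults at 90 min, against 0.173, 0.369 and 2.46 in adult sham, and 0.479, 1.04 and 0.449 in young mice at 90 min, against 1.14, 0.87 and 0.99 in young sham. Adult sham replicate 3 set most of the adult sham mean. Saa2 fell by 2.76 ± 0.73 in adults (adjusted p = 0.0357 in limma), and its age difference of -2.05 ± 1.03 ran from -2.87 to -0.95 without any 1 array. Lcn2 (lipocalin 2) had the same layout in adult sham, with 0.176, 0.336 and 2.49, and an age difference of -2.25 ± 1.35. Ceruloplasmin (Cp), with no such array, had an age difference of -0.66 ± 0.28. The list median was between -0.67 and -0.33 without any 1 array, nearest to 0 on dropping adult sham replicate 3.

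Early stress and inflammatory genes had no shared direction. The 23 immediate early genes had a median age difference of 0.01, with 13 positive, and the 22 genes of NF-kB feedback and inflammatory cytokines one of 0.06, also with 13 positive, and no member of either list had an unadjusted p under 0.05. Atf3, a stress-induced repressor, rose by 1.22 ± 0.32 in adults (adjusted p = 0.0362 in limma) and was at 0.67 ± 0.32 in young mice, an age difference of 0.55 ± 0.46. Fos had 0.838, 1.66 and 2.17 in adults at 90 min, against 0.388, 2.12 and 0.489 in adult sham, and 5.58, 1.93 and 3.37 in young mice at 90 min, against 0.633, 0.802 and 1.56 in young sham. Its age difference of -0.87 ± 1.02 and that of Jun, -0.66 ± 0.69, were within their errors. The neutrophil chemokine Cxcl1 was at -2.05 ± 0.54 in adults, where it fell (adjusted p = 0.0364), and at -2.08 ± 0.54 in young mice (adjusted p = 0.117), an age difference of 0.03 ± 0.77. Gadd45b, a growth arrest gene, had an age difference of 0.81 ± 0.28.

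Markers of other cells showed small shifts. The 17 endothelial markers had a median of -0.07 with no unadjusted p under 0.05, and Gja4, connexin 37 of arterial endothelium, fell by 0.59 ± 0.16 in adults and fell by 0.90 ± 0.16 in young mice (adjusted p = 0.0422 and 0.0393 in limma), with an age difference of 0.31 ± 0.23. The T and NK cell list, of 19 markers, was at a median of 0.11, with 14 positive. The killer cell receptor Ncr1 and the T cell protein Cd7 were at 0.33 ± 0.15 and 0.24 ± 0.10. Medians were 0.04 for 12 neutrophil markers, 0.02 for 9 markers of dendritic cells and monocytes, 0.05 for 9 of bile duct cells and 0.08 for 5 of red cells, with no unadjusted p under 0.05. For 21 olfactory receptor genes, whose known site is the nose, the median was 0.10, with 18 positive, so positive medians of the size of the T and NK cell list also occurred there.

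The other lists had medians between -0.32 and -0.01. They were -0.32 for 15 glucocorticoid-responsive genes, -0.25 for 18 p53 targets, -0.23 for 13 genes of gluconeogenesis and fasting, -0.16 for 26 PPARalpha targets, -0.07 for 22 HIF targets and glycolytic genes, -0.06 for 24 autophagy genes and -0.01 for 16 genes of the integrated stress response. Without any 1 array the first 3 of these medians lay between -0.57 and -0.10, between -0.35 and -0.17 and between -0.36 and -0.05, and that of the PPARalpha targets lay between -0.25 and -0.08. At most 2 members of any of them had an unadjusted p under 0.05.

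**Figure D4:**
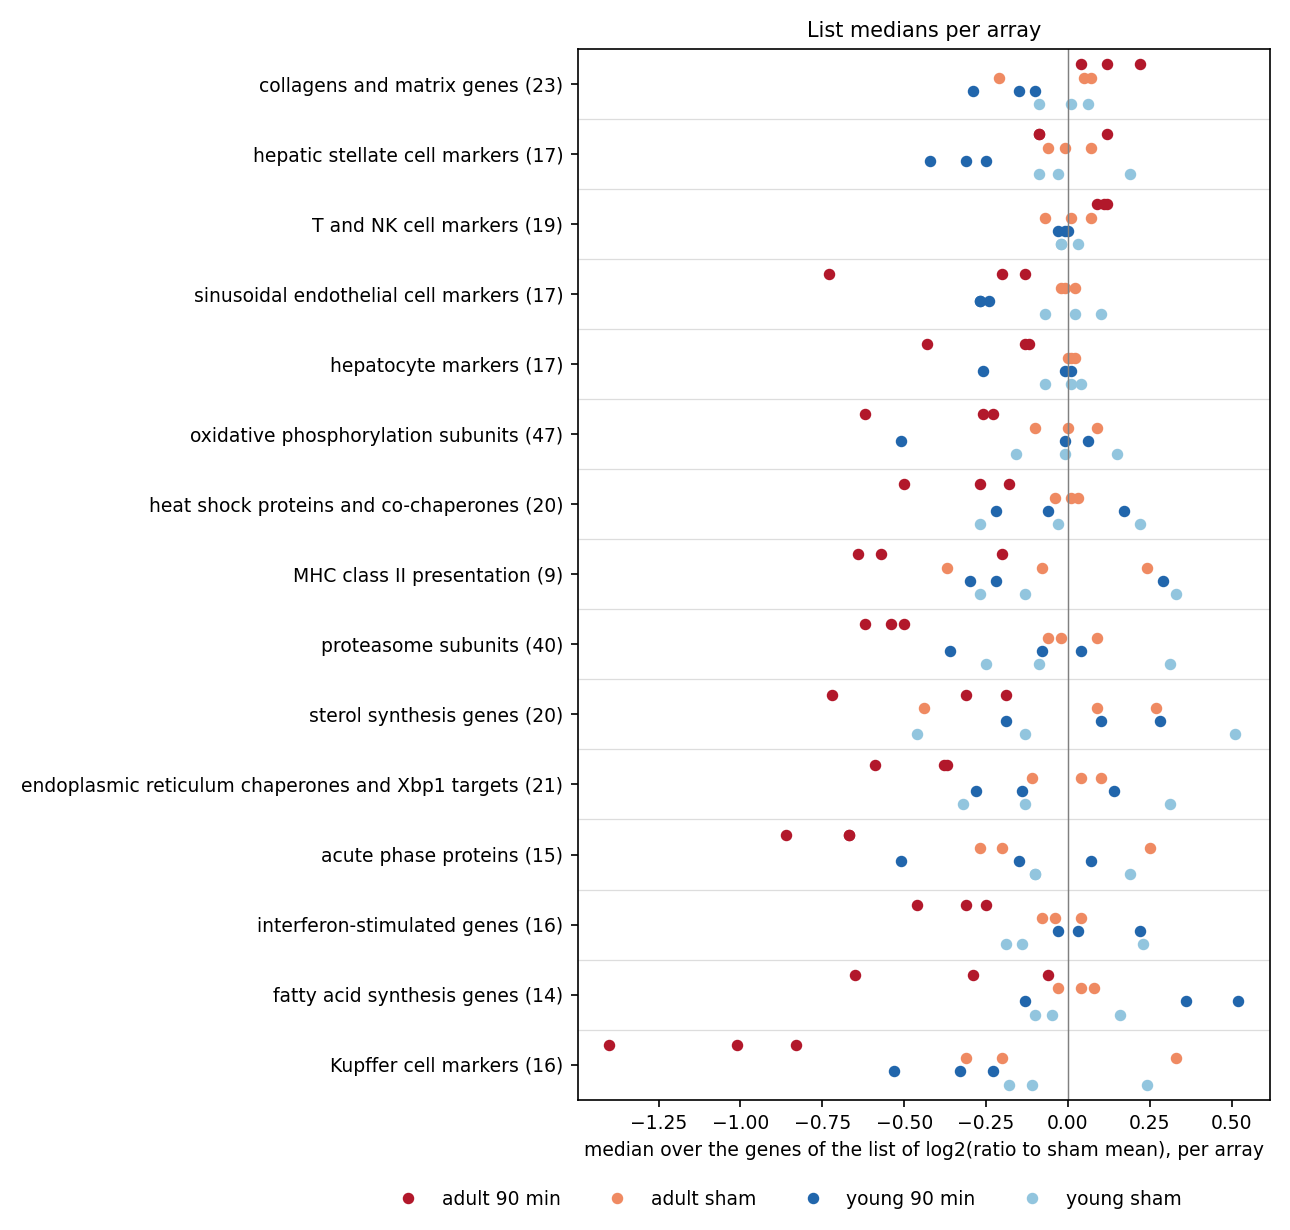
Median over the genes of a list of the log2 ratio on each array (horizontal axis), 3 arrays per group, for 15 lists with the number of measured genes in brackets. The adult 90 min arrays lie left of the young 90 min arrays for Kupffer cell markers, interferon-stimulated genes and proteasome subunits, and right of them for collagens and matrix genes.

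The age difference was also computed at the shorter times, which share the sham arrays with 90 min. At 30 min 539 probe sets had an unadjusted p under 0.05 (2.06%), at 60 min 1821 (6.96%) and at 90 min 2949 (11.3%), and 0 passed at each time. The difference of Islr was 0.34 at 30 min, 0.60 at 60 min and 0.88 at 90 min, and that of Lum was 0.68, 0.99 and 1.12. For Kupffer cell markers the list median was -0.38 at 30 min, 0.01 at 60 min and -0.70 at 90 min, so the value at 60 min did not lie between the others. The same order was seen for Bank1, at -0.47, -0.03 and -1.02. The proteasome medians were -0.08, -0.36 and -0.42, and those of the matrix list were 0.20, 0.22 and 0.34. Chka was at -0.55, -1.29 and -1.08.

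The change of the age difference between 60 and 90 min, in which the sham arrays cancel, was tested on its own. Of 26180 probe sets 0 passed (0%, lowest adjusted p = 0.925 in limma), and 1070 had an unadjusted p under 0.05 (4.09%). Of the 16 Kupffer cell markers 9 had an unadjusted p under 0.05 in it, where 4.13% of all genes did, and their median change was -0.71. The matrix list had a median change of 0.14 with 0 such genes and the proteasome list one of -0.07 with 0.

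**Figure D5:**
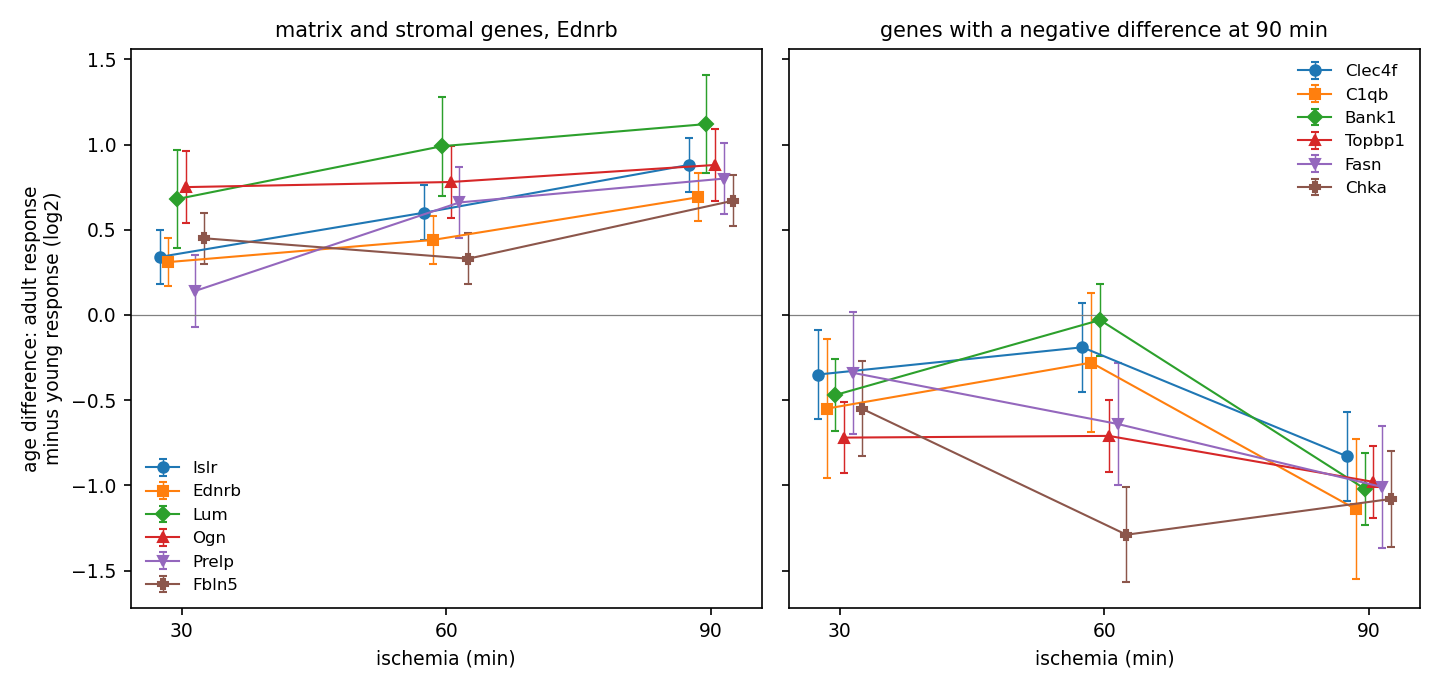
Age difference (adult response minus young response, log2) of 12 genes after 30, 60 and 90 min of ischemia, with the standard error from limma as bars and points set slightly apart along the time axis. The 6 genes on the left are positive at each time, and the 6 on the right are negative, lowest at 90 min in 5 of them and at 60 min in Chka.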

How the data were processed

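The deposited values are linear ratios, made with RMA per the submitters' processing notes, which give no version. In the files the mean of the 3 sham ratios of each age is 1 for every probe set within 2e-07, so each age was scaled to its own sham arrays. The ratios keep no brightness, so dim probe sets could not be recognized or filtered. Apart from that, precision is limited by the small number of arrays per group. Probe sets carry RefSeq accessions: 15228 of 26180 were paired with 1 symbol and 10952 with none. Where several probe sets stood for a gene (661 genes), the type of accession and then the lowest number picked the one used.

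A limma model (version 3.58.1, R 4.3.3) of the log2 ratios held the means of all 8 groups of the 24 arrays, which leaves 16 residual degrees of freedom, and the prior added 4.65. Benjamini-Hochberg adjustment ran over 26180 probe sets, two-sided, at 0.05. Errors are standard errors from limma. Groups came from the sample titles, and replicates are numbered in accession order, which pairs nothing. The genes named are the 12 lowest p in each direction, up to 4 of each list and a fixed set. Some genes that this rule names are not reported here. Members and lists were chosen with earlier results of these data known. Alternatives were 1 probe set per gene, the 12 arrays alone, a block on the title code's first part, quantile normalization, centring, array weights, the linear ratio, a robust prior and each array left out.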

Additional observations from a re-analysis of the deposited data

How the results depend on the processing

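The number of probe sets that passed in the age difference at 90 min was 0 under every alternative run except array weights, which gave 1580 (405 positive, 1175 negative), 64 of the 88 named genes among them, so 0 also without any 1 of the 12 arrays (1604 to 4713 with an unadjusted p under 0.05). For the change between 60 and 90 min it was 0 throughout. With a replicate block on the title code's first part 0 passed, with 4137 at an unadjusted p under 0.05. Replicate numbers follow accession order and pair no samples. The adult count of 1323 became 2271 with this block, 6 with quantile normalization, 4568 with array weights, 545 on the linear ratio and 22 to 2052 without any 1 array (22 without adult sham replicate 3). The young count of 29 became 4 with the block, 3 in the 12 arrays alone, 10 with quantile normalization, 90 with centring, 1143 with array weights, 108 on the linear ratio and 1 to 92 without any 1 array. Of 1760 values of named genes under alternatives, 1688 kept direction and side of the threshold and 64 newly passed, all with array weights. The other 8 were those of Cxcl1, whose difference of 0.03 turned to -0.03 with array weights, to -0.01 on the linear ratio and to as low as -0.49 without 1 array (-0.49 to 0.56). Of 740 list medians, 641 moved by no more than the SD of the list median over the 3 adult 90 min arrays. The 740 include those on the linear ratio, which are on another scale. The causes were not tested. The filter on dim probe sets was not run, and the change between 60 and 90 min gives no value in the 12 arrays alone.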
